A study of Rattus norvegicus with 8 samples.

Results

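Secreted acute-phase proteins are plasma proteins that the liver releases in larger amounts after injury, infection or surgery. The 10 genes described here, A2m, Lcn2, Hp, Orm1, Crp, Lbp, Cp, Hpx, Itih3 and Itih4, were taken by symbol from the table of deposited values, and all 10 were measured, among 14506 genes in all. Each was read by 1 probe set with a single gene symbol. The study measured liver RNA of female Wistar rats, an outbred laboratory strain, on 8 Affymetrix Rat Gene ST 1.0 arrays in 4 groups of 2. One group was liver regenerating for 8 h after an operation that took out 2/3 of its mass by removing the lateral lobes (partial hepatectomy, PH), and the other 3 were livers of healthy rats of 2, 4 and 12 weeks. How old the operated rats were is not stated in the sources read, and sham-operated animals were not analysed here, so surgery, anaesthesia and age cannot be told apart wherever operated livers are compared. GEO's titles number biological replicates, but the protocol describes duplicates of each sample, so p-values measure the spread between these arrays, which may in part be technical.

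The acute-phase response is set off mainly by interleukin-6 and interleukin-1, which reach hepatocytes from macrophages. Interleukin-6 acts through its receptor, the shared subunit gp130 and the transcription factor STAT3, interleukin-1 acts through NF-kB and C/EBP factors, and glucocorticoids add to both. In the rat A2m and Orm1 are strongly inducible members of the response, whereas Crp is present in plasma at rest and changes little. The members serve as protease inhibitors and matrix proteins (A2m, Itih3, Itih4), as binders of haemoglobin, haem, copper and iron carriers (Hp, Hpx, Cp, Lcn2), as a carrier of drugs and lipids (Orm1) and as recognition proteins for microbes and damaged cells (Crp, Lbp).

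Promoter windows of 300 bases (250 before to 50 after the annotated start, RefSeq, GRCr8) were found for 7 of the 10 members: Lcn2, Orm1, Crp, Cp, Hpx, Itih3 and Itih4. The start in that table lies 71 bases inside the annotated gene for Lcn2, 334 bases for Cp and 235 bases for Itih3, and at the gene's outermost base for the other 4. Both strands were searched for a STAT motif (TTCNNNGAA), a C/EBP motif (TTGCNNAA) and an NF-kB motif (GGG, 2 free bases, TT, 1 free base, CC), and, as a choice made after the sequences had been seen, for a glucocorticoid receptor motif (ACANNNTGT). A STAT match stood in 1 of the 7 windows, against 8.87% of the 33469 windows in the table. C/EBP matches stood in 5 of 7 (all windows 10.6%), NF-kB matches in 0 of 7 (all windows 5%) and glucocorticoid receptor matches in 2 of 7 (all windows 6.86%). A match is a run of letters and was not tested as a binding site. Sites with other letters were not counted, so a window without a match may still hold a site. The 3 windows shown are those of Orm1, Lcn2 and Itih4. Orm1 and Lcn2 both had their highest mean after PH and their lowest at 2 weeks. The 2-week and 12-week arrays overlapped for Lcn2 but not for Orm1, and a shared regulation was not tested. The Itih4 window held the only STAT match, and the level of Itih4 was called different in none of the comparisons below. Capitals mark the matches. In Orm1 the first capital run joins a glucocorticoid receptor match and a reverse-strand C/EBP match that overlap.
Orm1, chr5:81788259-81788558, plus strand: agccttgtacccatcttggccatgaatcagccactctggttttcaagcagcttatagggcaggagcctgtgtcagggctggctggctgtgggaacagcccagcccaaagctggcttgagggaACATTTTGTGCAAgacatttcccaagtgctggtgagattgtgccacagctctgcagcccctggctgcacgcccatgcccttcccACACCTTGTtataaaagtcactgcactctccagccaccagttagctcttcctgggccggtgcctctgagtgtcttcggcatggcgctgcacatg
Lcn2, chr3:36081731-36082030, minus strand: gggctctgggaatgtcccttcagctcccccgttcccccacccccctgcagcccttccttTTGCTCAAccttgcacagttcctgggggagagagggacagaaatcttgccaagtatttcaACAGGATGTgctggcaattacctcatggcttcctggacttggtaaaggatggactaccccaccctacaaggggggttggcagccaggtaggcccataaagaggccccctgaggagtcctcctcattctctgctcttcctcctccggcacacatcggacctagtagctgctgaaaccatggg
Itih4, chr16:6086735-6087034, plus strand: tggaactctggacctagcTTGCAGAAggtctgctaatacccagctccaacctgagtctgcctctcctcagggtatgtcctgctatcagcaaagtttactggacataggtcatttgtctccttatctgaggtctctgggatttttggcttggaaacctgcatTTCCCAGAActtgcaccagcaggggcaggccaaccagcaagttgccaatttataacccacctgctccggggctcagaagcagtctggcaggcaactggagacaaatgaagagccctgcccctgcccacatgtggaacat
The C/EBP match of Orm1 (TTGTGCAA as read on the plus strand, bases -123 to -116 from the start) has the same letters as that of Cp at bases -72 to -65. The STAT match of Itih4 (TTCCCAGAA) lies at bases -89 to -81. The Crp and Itih3 windows held none of the 4 motifs.

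**Figure D1:**
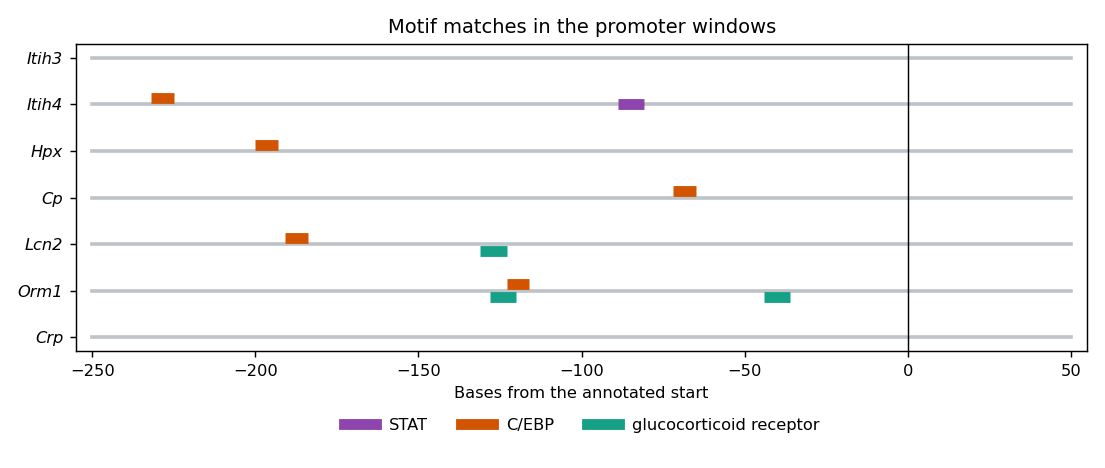
Matches to the STAT, C/EBP and glucocorticoid receptor motifs in the promoter windows of the 7 members found in the RefSeq table. The x axis gives bases from the annotated start, each grey line is 1 window, and coloured blocks are matches on either strand. Lcn2 and Orm1 hold both C/EBP and glucocorticoid receptor matches, Itih4 holds the only STAT match, and Crp and Itih3 hold none. The glucocorticoid receptor motif was chosen after the sequences had been seen.

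All values below are levels made by robust multi-array averaging (RMA) on the log2 scale, so that a difference of 1 is a doubling, and the number of arrays limits their precision. Within a group the arrays gave r between 0.952 and 0.980 across genes, which are not independent of each other. The least alike were the 12-week arrays, 1837 of whose genes lay at least 2-fold apart, and the other groups had 432 (PH), 480 (2 weeks) and 620 (4 weeks) such genes. Hepatocyte markers were high on every array, with a mean over 12 genes between 13.02 and 13.26. Some of these markers also stand in the acute-phase lists below, Alb, Ttr, Tf and Apoa1 as declining and Serpina1 and Fgb as rising. Fewer cells of a type and less RNA per cell cannot be told apart in such tissue samples. A gene was called higher or lower at a two-sided adjusted p under 0.05 (limma, Benjamini-Hochberg over 14506 genes), and the 6 pairwise comparisons of the 4 groups share arrays. Each difference carries its moderated standard error (SE), and 95% intervals come from the same fit.

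**Figure D2:**
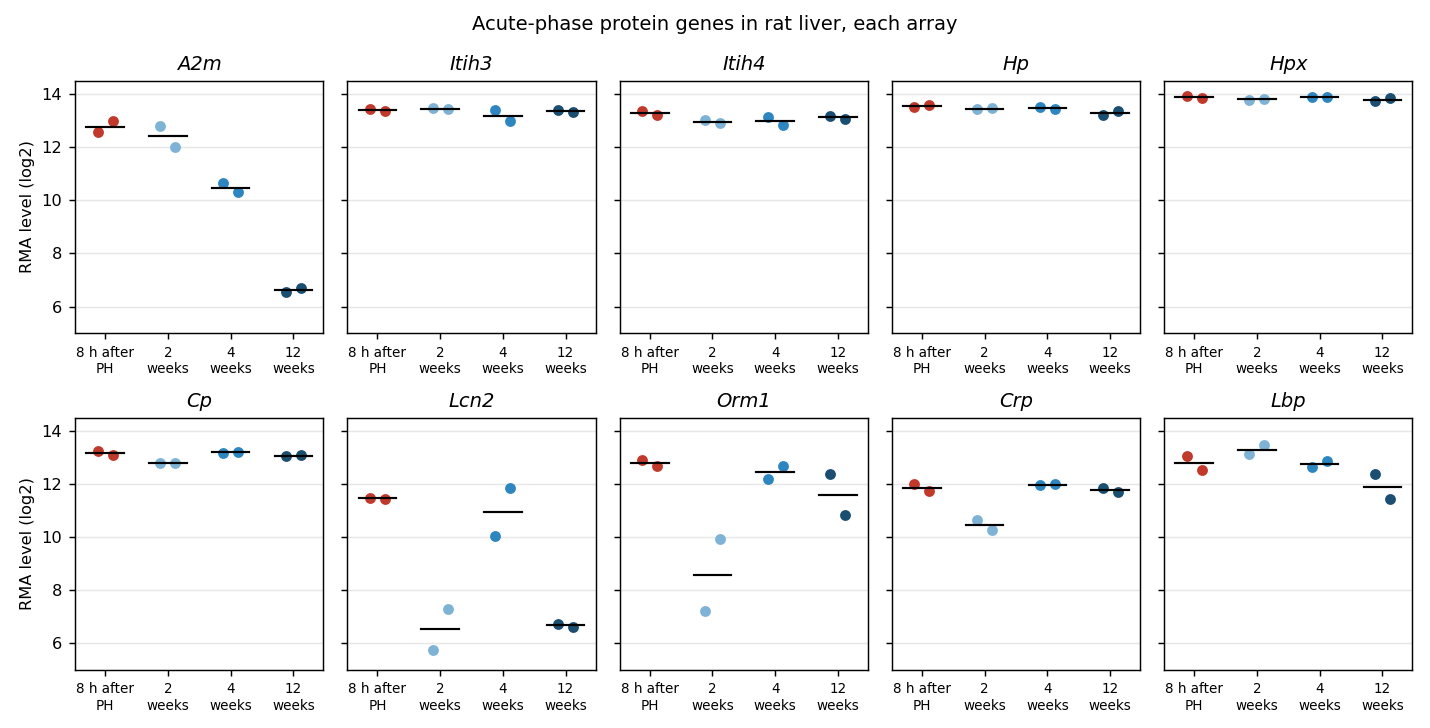
RMA level (log2) of the 10 genes on each of the 8 arrays, with 2 points per group and a bar at their mean, for the livers 8 h after PH and at 2, 4 and 12 weeks. A2m is high after PH and at 2 weeks and lowest at 12 weeks, Lcn2 and Orm1 are high after PH and at 4 weeks and low at 2 weeks, and Hp, Hpx, Cp, Itih3 and Itih4 stay within 12.79 and 13.91 in their group means.

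A2m encodes alpha-2-macroglobulin, a broad protease inhibitor that in the rat is also known from fetal and newborn serum. It read 12.57 and 12.99 on the PH arrays, 12.81 and 12.02 at 2 weeks, 10.67 and 10.30 at 4 weeks and 6.53 and 6.70 at 12 weeks. The operated and the 2-week livers overlapped, the 4-week livers lay below both, and the 12-week livers lay below all others. Operated livers averaged 12.78 ± 0.29, livers of 2 weeks 12.42 ± 0.56, those of 4 weeks 10.49 ± 0.26 and those of 12 weeks 6.62 ± 0.12 (SD, n = 2 each). Against 12 weeks A2m rose 71.8-fold after PH, and in limma its adjusted p was 4.2e-04. The 12-week levels lie not far above the array medians (5.98 to 6.17), so the fold depends on a dim signal. It was the only member called in that comparison, in which 0.0345% of all genes were called. Operated and 2-week livers differed by 0.36 ± 0.31 (SE, 95% interval -0.35 to 1.08, adjusted p = 0.777), so the interval leaves room for a difference of 1 unit. Over the ages A2m stepped down in 2 steps, by 1.93 ± 0.31 at 2 over 4 weeks (adjusted p = 0.0498) and by 3.87 ± 0.31 at 4 over 12 weeks (adjusted p = 0.004385). The first of these steps was called by a narrow margin and lost its call whichever of the 8 arrays was left out (adjusted p 0.0502 to 0.323) and under 5 other settings (0.05097 to 0.111). The second lost it without the first 4-week array (adjusted p = 0.0599). Against 4 weeks A2m rose by 2.30 ± 0.31 after PH (adjusted p = 0.0326), a call that was lost without either PH array (adjusted p = 0.157 and 0.25) or either 4-week array (0.161 and 0.227), and with all probe sets (0.0906).

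Relatives of A2m give no call. Mug1 and Mug2, macroglobulin-family genes of the rat, share sequence with A2m, and probes can read more than 1 such gene. Mug2 read 12.31 and 12.07 after PH and 12.56 and 12.34 at 12 weeks, a difference of -0.26 ± 0.24. Mug1 differed by -0.25 ± 0.23 in the same comparison. Of the 5 measured genes of the macroglobulin and inter-alpha-trypsin inhibitor families that are not members, 0 were called in any of the 6 comparisons in limma, and the largest difference among them was that of Mug2 at 2 against 12 weeks (-0.81 ± 0.24, adjusted p = 0.178).

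Itih3 encodes a heavy chain of the inter-alpha-trypsin inhibitor family, which binds and stabilises hyaluronan in the matrix. Itih4 encodes a member of the same family without the bikunin light chain. Itih3 read 13.43 and 13.38 after PH, 13.48 and 13.44 at 2 weeks, 13.41 and 12.98 at 4 weeks and 13.40 and 13.33 at 12 weeks. Only the second 4-week array lay apart. Itih4 read 13.39 and 13.23 after PH, above all 6 arrays of unoperated rats, which ran from 12.83 to 13.18. It differed from 12 weeks by 0.18 ± 0.22 (95% interval -0.33 to 0.68), from 4 weeks by 0.31 ± 0.22 and from 2 weeks by 0.34 ± 0.22, none of them called.

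Hp encodes haptoglobin, which binds free haemoglobin, and Hpx encodes hemopexin, which binds free haem. Hp read 13.50 and 13.61 after PH, 13.43 and 13.47 at 2 weeks, 13.51 and 13.45 at 4 weeks and 13.20 and 13.35 at 12 weeks. The 12-week arrays were the lowest, and their difference from the PH arrays was 0.28 ± 0.20 (95% interval -0.19 to 0.75, adjusted p = 1). Hpx stayed between 13.73 and 13.95 on the 8 arrays, and 97.4% of genes had a larger span of group means. Cp encodes ceruloplasmin, a copper-carrying ferroxidase. It read 13.24 and 13.09 after PH, 12.79 and 12.80 at 2 weeks, 13.17 and 13.22 at 4 weeks and 13.04 and 13.08 at 12 weeks. The 2-week arrays lay below all others, with differences of 0.38 ± 0.20 for PH minus 2 weeks (adjusted p = 0.569) and -0.40 ± 0.20 for 2 minus 4 weeks (adjusted p = 0.764), neither of them called.

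Hp, Hpx, Cp, Itih3 and Itih4 are grouped here because their group means spanned less than 1 log2 unit, so the counts describe that choice. Among them 0 of 30 differences over the 6 comparisons were called in limma, and 0 had an unadjusted p under 0.05. The largest of the 30 was 0.40, a 1.32-fold difference, and their 95% intervals ran from -0.86 to 0.84, which leaves room for changes of up to 1.82-fold. Their levels lay above those of at least 99.7% of genes, near the highest value of an array, which was at least 14.10. Signal saturation there was not tested. The median span of group means over all genes was 0.44, and the 5 genes spanned 0.11 to 0.40.

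**Figure D3:**
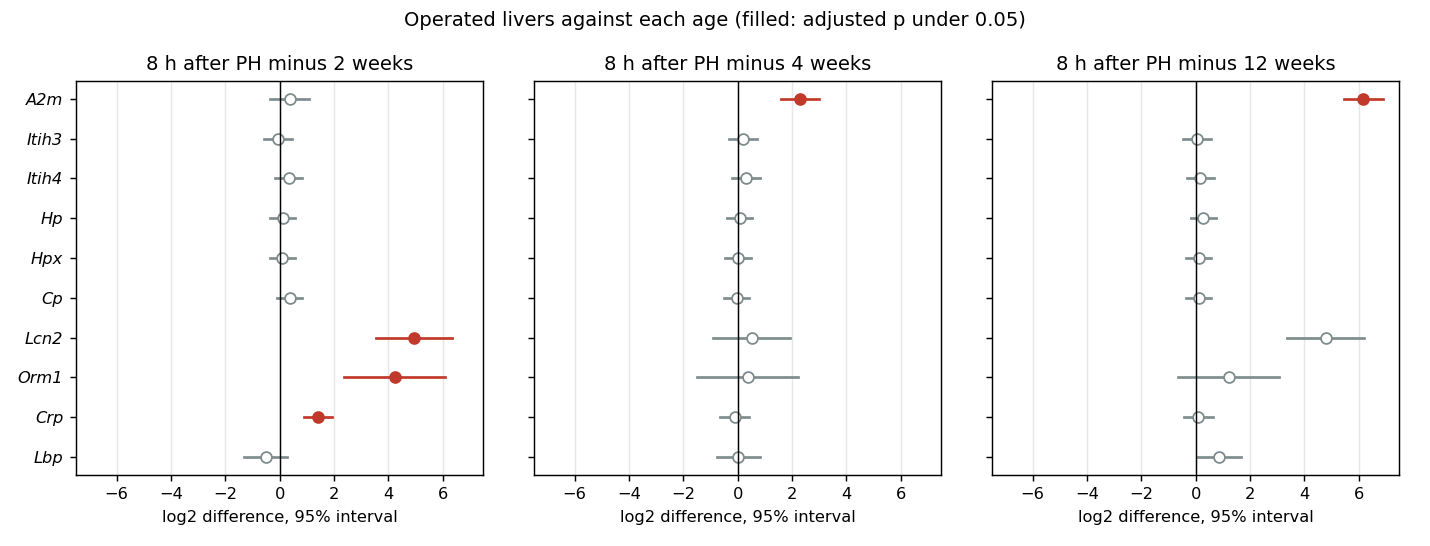
Log2 difference with its 95% interval for the 10 genes in the livers 8 h after PH, against 2, 4 and 12 weeks from left to right. Filled red points have an adjusted p under 0.05. Lcn2, Orm1 and Crp are filled against 2 weeks and A2m against 4 and 12 weeks, and the wide intervals belong to Lcn2 and Orm1.

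Lcn2 encodes lipocalin-2, which binds the iron carriers of bacteria and is made by stressed hepatocytes and stored in neutrophil granules. It read 11.47 and 11.45 after PH, 5.74 and 7.29 at 2 weeks, 10.05 and 11.85 at 4 weeks and 6.72 and 6.62 at 12 weeks. The operated and 4-week livers were high and overlapped, the 2-week and 12-week livers were low and overlapped, and no array lay between 7.29 and 10.05. The lowest level, 5.74, lies under the array medians (5.98 to 6.17) and no detection call was used, so the size of differences from the low groups rests on values that may be at background. Lcn2 rose by 4.94 ± 0.62 after PH against 2 weeks (adjusted p = 0.007097), and it fell by 4.43 ± 0.62 at 2 against 4 weeks (adjusted p = 0.024). The difference from 12 weeks was as wide, 4.79 ± 0.62 after PH (95% interval 3.37 to 6.20) and 4.27 ± 0.62 at 4 weeks (95% interval 2.86 to 5.69), but missed the threshold with adjusted p = 0.0543 and 0.0707. Both were called with the replicate number as a block (0.01153 after PH and 0.01028 at 4 weeks), with 75th percentile scaling (0.043 and 0.0293) and when genes dimmer than the median were left out (0.0462 and 0.0357), and the first also with only the 4 arrays compared (0.01066). PH and 4 weeks differed by 0.51 ± 0.62 (95% interval -0.90 to 1.93). The call against 2 weeks was lost without the first PH array (adjusted p = 0.0561) or the first 2-week array (0.0529), and that between 2 and 4 weeks without the first 2-week (0.126) or the second 4-week array (0.123), with all probe sets (0.0739) and with only the 4 arrays compared (0.0898).

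Neutrophil markers stand beside these levels because neutrophils also hold Lcn2. The mean level of 13 neutrophil markers was 5.46 and 5.54 after PH, 7.03 and 5.62 at 2 weeks, 5.44 and 5.69 at 4 weeks and 5.28 and 4.99 at 12 weeks. The first 2-week array, with the highest marker mean and with the granule gene Ngp at 11.28, had the lowest Lcn2 level of the 8. The 13 markers were uneven on that array, from 5.06 to 11.28, so their mean and sum lean on Ngp, the highest. Summed on the linear scale the markers gave 614 and 674 units after PH, 4156 and 678 at 2 weeks, 586 and 711 at 4 weeks and 526 and 433 at 12 weeks. Of the 13 markers 12 differed upward after PH against 12 weeks (5 without overlap, all genes 13.7%, median 0.21). At 4 against 12 weeks 13 did (7 without overlap, all genes 13.7%, median 0.50), and in both comparisons Lcn2 was high. The markers also differed upward in 13 cases at 2 against 12 weeks (9 without overlap, all genes 17.6%, median 0.83), where Lcn2 differed by -0.15 ± 0.62. In 9 cases they differed downward after PH against 2 weeks (5 without overlap, all genes 22.2%). In limma 0 of the 13 were called in any of the 6 comparisons, with 0 to 8 at an unadjusted p under 0.05 (all genes 4.47% to 11.6%). The part of neutrophils in the Lcn2 differences was not tested. Macrophage markers, a list of 12 measured genes, had a mean between 8.68 and 9.31 on the 8 arrays.

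**Figure D4:**
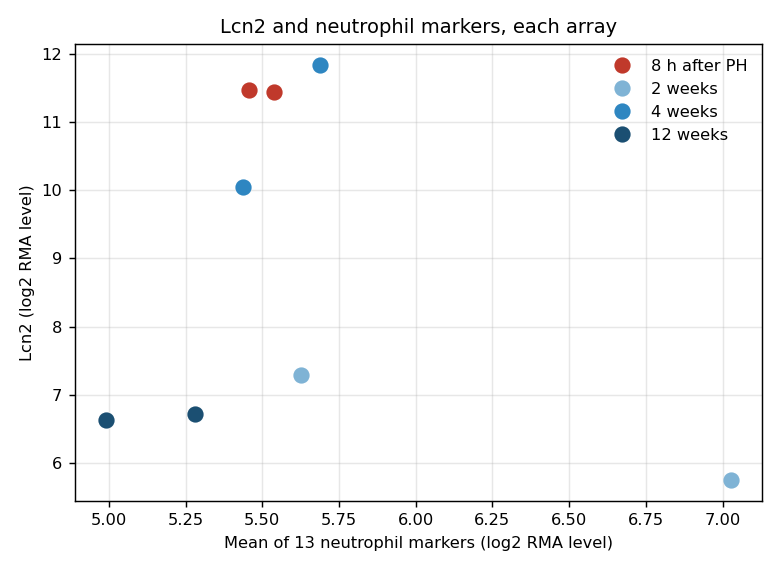
Lcn2 level (y axis) against the mean level of 13 neutrophil markers (x axis), both log2, with 1 point per array and colours for the 4 groups. The array with the highest marker mean, 7.03, has the lowest Lcn2 level, 5.74, and the PH and 4-week arrays with high Lcn2 have marker means between 5.44 and 5.69.

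Orm1 encodes orosomucoid (alpha-1-acid glycoprotein), a lipocalin that carries basic drugs and lipids and is classically induced by glucocorticoids and cytokines in rat liver. It read 12.92 and 12.70 after PH, 7.21 and 9.94 at 2 weeks, 12.21 and 12.68 at 4 weeks and 12.37 and 10.82 at 12 weeks. Both 2-week livers lay below every other liver, and they were 2.73 units apart. The 12-week livers were 1.56 units apart. Orm1 rose 18.8-fold after PH against 2 weeks (4.23 ± 0.81, adjusted p = 0.0385). The call was lost without either PH array (adjusted p = 0.217 and 0.171), the first 2-week array (a difference of 2.87, 0.126) or either 4-week array (0.0805 each). It was also lost with median centring (0.0516), quantile normalization (0.0522), all probe sets (0.0927) and only the 4 arrays compared (0.0533). At 2 weeks Orm1 differed by -3.87 ± 0.81 from 4 weeks (adjusted p = 0.132) and by -3.02 ± 0.81 from 12 weeks (adjusted p = 0.134). Without the second 2-week array these differences were -5.24 and -4.39, and both were called (adjusted p = 0.0297 and 0.0235). Without the first 2-week array they were -2.50 and -1.66. After PH the difference from 12 weeks was 1.21 ± 0.81 (95% interval -0.64 to 3.07, adjusted p = 1), at 1.99 without the first and 0.43 without the second 12-week array.

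Crp encodes C-reactive protein, a pentraxin that binds phosphocholine on microbes and damaged cells. It read 12.00 and 11.73 after PH, 10.64 and 10.26 at 2 weeks, 11.97 and 11.99 at 4 weeks and 11.83 and 11.71 at 12 weeks. The 2-week livers lay more than 1 unit below the other 6, which ran from 11.71 to 12.00. Crp fell by 1.53 ± 0.23 at 2 against 4 weeks (adjusted p = 0.0347) and by 1.32 ± 0.23 at 2 against 12 weeks (adjusted p = 0.0255), and it rose by 1.42 ± 0.23 after PH against 2 weeks (adjusted p = 0.0205). PH and 12 weeks differed by 0.10 ± 0.23 (95% interval -0.43 to 0.62). The call at 2 against 12 weeks was lost whichever of 7 arrays was left out, all but the second at 12 weeks (adjusted p 0.0549 to 0.135), and that at 2 against 4 weeks whichever of the 6 PH, 2-week and 4-week arrays was left out (0.0822 to 0.2505). The call after PH was lost without either PH array (0.199 and 0.108) or either 2-week array (0.0728 and 0.102). With only the 4 arrays compared the calls at 2 against 12 and 2 against 4 weeks were lost as well (0.123 and 0.0746), the first also with array weights (0.0759) and the second with median centring (0.056) and all probe sets (0.0757).

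Lbp encodes lipopolysaccharide-binding protein, which hands bacterial endotoxin to CD14. It read 13.05 and 12.52 after PH, 13.13 and 13.46 at 2 weeks, 12.65 and 12.88 at 4 weeks and 12.38 and 11.44 at 12 weeks. The 2-week livers were the highest and the 12-week livers the lowest, with no overlap between either and the other groups. Lbp differed by 1.39 ± 0.35 at 2 against 12 weeks (adjusted p = 0.105), and by 1.86 without the first 12-week array, where it was called (adjusted p = 0.0332). After PH it differed from 12 weeks by 0.88 ± 0.35 (95% interval 0.08 to 1.67, adjusted p = 0.759). Cd14 read 10.40 and 10.57 at 2 weeks and 11.91 and 11.66 at 12 weeks, and it fell 2.47-fold at 2 against 12 weeks (adjusted p = 0.0234).

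**Figure D5:**
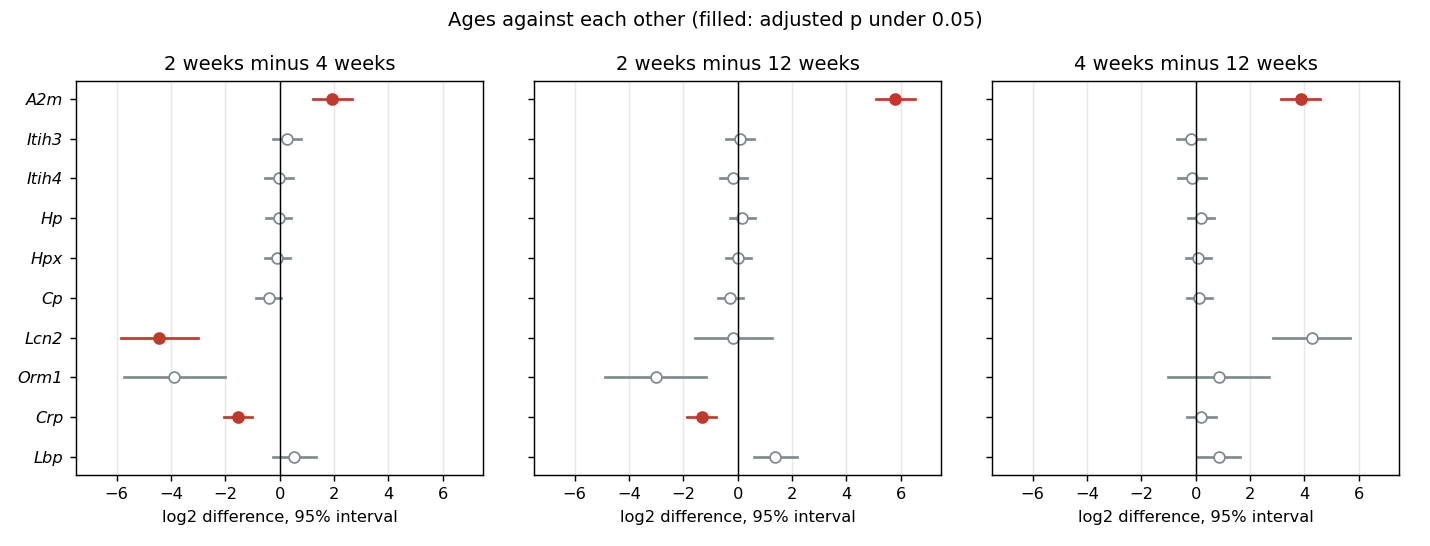
Log2 difference with its 95% interval for the 10 genes between ages, with 2 minus 4 weeks, 2 minus 12 weeks and 4 minus 12 weeks from left to right. Filled red points have an adjusted p under 0.05. A2m is filled above 0 in all 3 panels, Crp below 0 in the first and the second panel and Lcn2 below 0 in the first.

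Seen side by side, the 10 genes had the highest group mean after PH in 6 cases (A2m, Lcn2, Hp, Orm1, Hpx and Itih4), and the PH livers had the lowest mean in 0 cases. Over all genes these shares were 26.5% and 24.7%. The lowest mean was at 2 weeks for Lcn2, Orm1, Crp, Cp and Itih4, at 12 weeks for A2m, Hp, Lbp and Hpx and at 4 weeks for Itih3. Against 12 weeks both PH arrays lay above both 12-week arrays for 8 of the 10 genes (all genes 13.7%) and below for 0 (15.2%), and 10 of 10 differences were above 0 (50.3%). A2m was the 1 gene called higher, in a comparison with 0.0207% of all genes higher and 0.0138% lower by that rule. The unadjusted p was under 0.05 for 3 of the 10 (A2m, Lcn2 and Lbp) and for 6% of all genes. The median difference of the 10 was 0.23, beside 0.0017 over all genes. Against 4 weeks the PH arrays lay above for 3 of 10 (all genes 21.7%) and below for 0 (22.5%), and 8 differences were above 0 (49.2%). The 1 call, A2m, was higher (0.117% of all genes called higher, 0.186% lower, 0.303% in either direction), and it was also the 1 gene at an unadjusted p under 0.05 (10.1%). Against 2 weeks they lay above for 7 (24.6%) and below for 2 (22.2%), and 8 differences were above 0 (53.1%). Lcn2, Orm1 and Crp were called higher and 0 genes lower, where 0.793% of all genes were called higher, 1.36% lower and 2.16% in either direction. These 3 were also the members at an unadjusted p under 0.05 (11.6%).

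Between ages, calls at 2 weeks went in both directions. Against 12 weeks the 2-week arrays lay above for 4 of the 10 (all genes 17.6%) and below for 4 (16.8%), with 5 differences above 0 (48.4%). A2m was called higher there, with 1.29% of all genes, and Crp lower, with 0.938%, so that 2 of 10 were called in a comparison that called 2.23% of all genes. At an unadjusted p under 0.05 stood 4 members (11.1%), Orm1 and Lbp being the others. Against 4 weeks the 2-week arrays lay above for 3 (20.1%) and below for 5 (20.1%), and 3 differences were above 0 (49.8%). A2m was called higher (0.152% of all genes) and Lcn2 and Crp lower (0.296%), 3 of 10 where 0.448% of all genes were called, and 4 members, Orm1 included, had an unadjusted p under 0.05 (7.24%). The 4-week arrays lay above the 12-week arrays for 7 of the 10 (13.7%) and below for 0 (11.3%), and 8 differences were above 0 (50.1%). A2m was called higher and 0 members lower (0.0827% of all genes called higher, 0.0276% lower, 0.11% in either direction), and A2m, Lcn2 and Lbp had an unadjusted p under 0.05 (4.47%). The 2-week livers held A2m 55.8-fold above its 12-week level and Crp 2.5-fold below its own.

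The genes whose levels ran most like those of a member over the 8 arrays were picked by Pearson's r among 1624 genes with group means spanning at least 1 log2 unit. The 8 points share 4 groups of 2 arrays, so r mostly restates the order of the groups. For A2m these were Hgf (r = 0.96), Hmox1, the haem-degrading enzyme (r = 0.92), and Ifrd1 (r = 0.91). Hgf, a growth factor for hepatocytes, is also among the stellate and fibroblast markers used below. For Lcn2 the genes most alike were the neutrophil-attracting chemokine Cxcl1 (r = 0.95), the clock repressor Nr1d1 (r = 0.90) and Prg4 (r = 0.86). For Orm1 they were Cyp1a2 (r = 0.97), the kinase gene Pim3 (r = 0.96) and Dmbt1 (r = 0.95). For Crp they were Cyp2c12 (r = 0.98), a P450 of female rat liver, Serpina3c (r = 0.98) and Sult1b1 (r = 0.98). For Lbp they were Slc13a3 (r = 0.93), Pla2g12a (r = 0.90) and Adm2 (r = 0.89).

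Other acute-phase genes give the setting. Of 31 measured further proteins listed as rising in the response, 24 differed upward and 7 downward after PH against 12 weeks, with a median of 0.31. The arrays did not overlap for 17 upward (all genes 13.7%) and 3 downward (15.2%). In limma 0 were called and 9 had an unadjusted p under 0.05 (all genes 6%). Mt2A, a metal-binding metallothionein, differed by 2.40 ± 0.47, Timp1, an inhibitor of matrix proteases, by 1.83 ± 0.50 and Vnn1 by 1.58 ± 0.41. The fibrinogen chains and Serpina3n were picked out after their values were seen. Fga read 13.53 and 13.35 after PH and 12.69 and 12.57 at 12 weeks (0.81 ± 0.21, adjusted p = 0.403). The other chains differed by less, Fgb at 13.48 and 13.37 against 12.91 and 13.04, and Fgg at 13.73 and 13.70 against 13.08 and 13.14. Serpina3n, a protease inhibitor, read 13.98 and 13.96 against 13.02 and 12.90 (1.01 ± 0.22, adjusted p = 0.276). Of 21 measured plasma proteins listed as declining in the response, 18 differed downward and 3 upward, with a median of -0.17. The arrays did not overlap for 9 downward (all genes 15.2%) and 1 upward (13.7%), and 0 were called or had an unadjusted p under 0.05 in limma.

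Most calls in these lists involved the 2-week livers. Calls of genes outside the 10 members, here and below, were not followed individually under the alternative settings. Hamp, which encodes the iron hormone hepcidin, read 12.31 and 12.05 after PH, 6.28 and 6.27 at 2 weeks, 8.07 and 10.42 at 4 weeks and 12.04 and 11.56 at 12 weeks. It rose by 5.90 ± 0.62 after PH against 2 weeks (adjusted p = 0.003204) and fell by 5.53 ± 0.62 at 2 against 12 weeks (adjusted p = 0.004346). Serpina3c, a protease inhibitor, likewise rose by 1.62 ± 0.20 after PH against 2 weeks and fell by 1.49 ± 0.20 at 2 against 12 weeks and by 1.52 ± 0.20 at 2 against 4 weeks. Vnn1, a pantetheinase, rose by 3.98 ± 0.41 at 2 against 12 weeks and fell by 2.40 ± 0.41 after PH against 2 weeks. In all, 2 of the 31 inducible proteins rose and 3 fell at 2 against 12 weeks (all genes 1.29% and 0.938%), 1 rose and 2 fell at 2 against 4 weeks (0.152% and 0.296%), and 2 rose and 1 fell after PH against 2 weeks (0.793% and 1.36%). At 4 against 12 weeks and after PH against 4 weeks 0 were called in limma, with 8 (all genes 4.47%) and 4 (10.1%) at an unadjusted p under 0.05, the second share being near that of all genes. Of the 21 proteins listed as declining, Serpina7, the thyroxine-binding globulin, rose at 2 against 12 weeks (3.97 ± 0.81) and Apoa4 rose after PH against 2 weeks (2.66 ± 0.43), and these were their calls over the 6 comparisons.

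Of 29 measured inducers and signalling genes, 0 were called after PH against 12 weeks in limma and 9 had an unadjusted p under 0.05 (all genes 6%). Socs3, the feedback inhibitor of STAT3 signalling, read 8.95 and 8.38 after PH against 6.39 and 6.33 at 12 weeks (2.31 ± 0.28, adjusted p = 0.0536). Osmr, a receptor for oncostatin M, differed by 2.22 ± 0.36 and the interleukin-1 receptor gene Il1r1 by 1.92 ± 0.34. Against 4 weeks Osmr (2.57 ± 0.36), the gp130-family receptor Lifr (2.11 ± 0.23) and Socs3 (1.89 ± 0.28) were called higher after PH (all genes 0.117%). Against 2 weeks Osmr (3.44 ± 0.36), Socs3 (2.30 ± 0.28), Lifr (1.45 ± 0.23) and Junb (1.28 ± 0.24) were called higher (all genes 0.793%). Lifr was called lower at 2 against 12 weeks (-1.61 ± 0.23, all genes 0.938%) and at 4 against 12 weeks (-2.27 ± 0.23, all genes 0.0276%). The message of interleukin-6 itself, Il6, picked out after its values were seen, lay between 3.48 and 4.32 on the 8 arrays, near the bottom of the scale, and no detection call was at hand to separate it from background.

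Of 16 measured receptors and partners of the members, 0 were called after PH against 12 weeks in limma. An unadjusted p under 0.05 was reached by 3 (all genes 6%), and the largest difference was that of Hmox1 (1.95 ± 0.31, adjusted p = 0.116). At 2 against 12 weeks 1 was called higher (all genes 1.29%), Hmox1 (1.52 ± 0.31), by a narrow margin in limma (adjusted p = 0.0498). Called lower were 2 (all genes 0.938%), Cd14 and the endocytic receptor Lrp2 (-1.77 ± 0.24). After PH against 2 weeks Lrp2 rose (1.35 ± 0.24) and Tfrc, the transferrin receptor, fell (-2.47 ± 0.34), where 0.793% and 1.36% of all genes were called higher and lower. The values of other cell types stand beside the 2-week results: erythroid markers had a mean of 8.53 and 7.55 at 2 weeks, against 5.93 and 6.25 at 12 weeks, and stellate and fibroblast markers 8.66 and 8.36 against 7.38 and 7.35. The other comparisons moved too. At 4 against 12 weeks 7 of 7 erythroid markers (median 1.41) and 12 of 12 stellate and fibroblast markers (median 0.99) differed upward. Of them 5 and 9 lay higher without overlap (all genes 13.7%). After PH against 4 weeks 7 of 7 erythroid markers lay lower without overlap (all genes 22.5%), with Alas2 called lower (all genes 0.186%). In the same comparison 11 of 12 stellate and fibroblast markers differed downward. After PH against 12 weeks 10 of 10 lymphocyte markers differed downward, 5 without overlap (all genes 15.2%). Their part in the results was not tested. Hepatocyte markers had a mean of 13.18 and 13.26 at 2 weeks, against 13.22 and 13.12 at 12 weeks.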

How the data were processed

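Liver RNA of 4 groups of 2 arrays each was analysed. The authors deposited log2 values made by RMA (background correction, normalization between arrays and a summary of each probe set). The submitters' processing notes name RMA and Affymetrix Expression Console, and versions, filters and build are not stated in the sources read. The table held 29214 probe sets with values from 1.32 to 14.23. The platform annotation named 15633 of them, 15310 with 1 symbol, of which 15279 matched a current GRCr8 gene identifier, and 323 with several. Each gene was represented by its probe set with the highest mean, which left 14506 genes. No detection calls or batch information were used.

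One linear model of the 4 groups was fitted to the 8 arrays with lmFit and eBayes in limma 3.58.1 (R 4.3.3), with 4 residual and 4.27 prior degrees of freedom, and tested on simulated data. The alternatives were leaving out each array, 3 scalings, the replicate number as a block, other gene sets, other prior and weight settings and a limit of 0.01. They were followed for each member and, over all genes, for the number of calls. The members and lists were chosen with earlier results of these data known. Named outside the members are list genes that were called or among the 3 largest differences, the 3 genes most like a member, and those said to be picked later. Motif matches were counted in RefSeq promoter windows (GRCr8).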

Additional observations from a re-analysis of the deposited data

How the results depend on the processing

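Each group has 2 arrays, so a fit that leaves out 1 array assumes that the lone one varies like the other groups. The 10 genes over 6 comparisons gave 60 differences, each run under 19 alternatives. Of the resulting values 1041 kept their direction and their side of the threshold, 63 lost a call, 10 gained one and 26 changed sign, all 26 of them uncalled. A2m after PH against 12 weeks (5.96 to 6.37) and at 2 against 12 weeks (5.41 to 6.20) was called under all 19. The number of members called after PH against 12 weeks was 1, and 2 with 75th percentile scaling, the replicate number as a block, genes at or above the median level or only the 4 arrays compared, the second being Lcn2 each time. At 4 against 12 weeks it was 1, and 2 under the first 3 of these settings. At 2 against 12 weeks it was 2, and 1 with only the 4 arrays, array weights or a limit of 0.01. At 2 against 4 weeks it was 3, 1 with median centring and 0 over all probe sets, with only the 4 arrays or at 0.01. In that comparison A2m alone lost its call with quantile normalization or with a trended, robust prior. After PH against 4 weeks the number of members called was 1, and 0 over all probe sets or at 0.01. After PH against 2 weeks it was 3, and 1 at 0.01. Orm1 alone lost its call there with median centring, quantile normalization, all probe sets or only the 4 arrays. Leaving out 1 array gave 1 to 1 calls for PH against 12 weeks, 1 to 2 for 2 against 12 weeks, 0 to 1 for 4 against 12 weeks, 0 to 3 for PH against 2 weeks, 0 to 1 for PH against 4 weeks and 0 to 2 for 2 against 4 weeks. The labels do not say what a replicate number shares across groups, so the numbers were not taken as pairs in the main fit. Deviations of same-numbered arrays correlated above 0 in all 6 comparisons, by 0.18 to 0.57 in 5 and by 0.023 in 2 against 12 weeks. Whether they mark a shared effect was not tested beyond this. With the block the calls over all genes numbered 41 for PH against 12 weeks, 515 for 2 against 12, 30 for 4 against 12, 500 for PH against 2, 131 for PH against 4 and 128 for 2 against 4 weeks, beside 5, 323, 16, 313, 44 and 65 without it. Settings other than the block and leaving out an array that moved these counts over 1.5 times gave 2 to 11 for PH against 12 weeks, 109 to 181 for 2 against 12, 6 to 10 for 4 against 12, 104 to 587 for PH against 2, 8 to 158 for PH against 4 and 31 to 115 for 2 against 4 weeks. Leaving out 1 array gave, in the same order, 1 to 11, 101 to 382, 5 to 24, 72 to 421, 6 to 129 and 26 to 104. Sign changes by scaling were, for 2 against 12 weeks, Hpx at -0.0645 (75th percentile) and -0.12 (quantile normalization); for 4 against 12 weeks, Hpx at -0.0398 (quantile); for PH against 4 weeks, Lbp at -0.0148 and Hpx at -0.0210 (75th percentile) and Cp at 0.0310 (median centring) and 0.0160 (quantile); for 2 against 4 weeks, Hp at 0.0370 and Itih4 at 0.0452 (median centring) and Itih4 at 0.0053 (quantile). Leaving out 1 array moved across 0 Crp (-0.0360 to 0.23) for PH against 12 weeks; Lcn2 (-0.93 to 0.62) and Hpx (-0.0465 to 0.0786) for 2 against 12; Itih3 (-0.38 to 0.0409) and Itih4 (-0.30 to 0.0267) for 4 against 12; A2m (-0.03 to 0.76) for PH against 2; Lcn2 (-0.39 to 1.41), Crp (-0.24 to 0.0194), Lbp (-0.25 to 0.29), Cp (-0.10 to 0.0465), Hpx (-0.0327 to 0.0582) and Itih3 (-0.0004 to 0.42) for PH against 4; and Hp (-0.0633 to 0.0013) and Itih4 (-0.19 to 0.14) for 2 against 4 weeks. The cause was not tested.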
